A study of Homo sapiens with 8 samples.

Results

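The genes described here encode the subunits of RNA polymerases I, II and III (Pol I, Pol II and Pol III) and the transcription factors TFIIIA and TFIIIC, and the question was which of their promoters carried PHF20 or PHF20L1. They were taken from GENCODE release 44 as every protein-coding gene whose symbol starts with POLR1, POLR2, POLR3 or GTF3, which gave 41 gene IDs under 40 symbols (POLR2J3 has 2 IDs) of 20033 coding genes on the nuclear chromosomes. A subunit gene with any other symbol is therefore not among them. A gene was called bound if at least 1 bp of a peak fell in its promoter, taken as 1000 bp before and 500 bp after the transcription start site (TSS) of each of its transcripts. PHF20 and PHF20L1 are homologous readers of methylated lysines that belong to the nonspecific lethal (NSL) histone acetyltransferase complex. The data are HA chromatin immunoprecipitation sequencing (ChIP-Seq) of U2OS, a human osteosarcoma cell line, in 8 libraries. Cells overexpressed either PHF20 with an N-terminal 3xHA tag (2 ChIP libraries and 1 input library without antibody) or PHF20L1 with a 3xHA tag (3 ChIP libraries and 2 inputs), of which 1 ChIP library and 1 input had the tag at the N terminus and 2 ChIP libraries and 1 input at the C terminus. All libraries thus came from cells with an ectopic, tagged protein, sorted for GFP to enrich for it, and not from the endogenous proteins. The deposited files hold 1 final list per protein, 4147 peaks for PHF20 and 723 for PHF20L1, with start and end positions only. No height, score, count or replicate value is in them, so the depth behind a peak is unknown, no spread between replicates can be given, and the 95% Wilson intervals below cover counting error only. A gene without a peak was not called at the thresholds used, and binding below them is possible. A called peak may in turn be weak, since its height is not given.

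Pol I transcribes the large ribosomal RNA precursor in the nucleolus, Pol II transcribes messenger RNAs, and Pol III transcribes transfer RNAs, the 5S ribosomal RNA and other short RNAs such as U6. The 3 enzymes share several small subunits, and Pol I and Pol III share a further pair. TFIIIA binds inside the 5S RNA gene, whereas TFIIIC, a complex of 6 subunits, binds the internal promoter of transfer RNA genes and brings in TFIIIB, which recruits Pol III. The genes that encode all these proteins are themselves transcribed by Pol II.

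Sequences of 8 of these promoters are shown because the peaks and the motif matches described below lie in them. Each runs from 200 bases before the TSS of the Ensembl canonical transcript to base 30 of the transcript, 5′ to 3′ along the gene, and was read from hg38 at chr2:27356735-27356964 on the minus strand for GTF3C2, chr6:110958506-110958735 on the plus strand for GTF3C6, chr6:43516889-43517118 on the plus strand for POLR1C, chr10:78029486-78029715 on the minus strand for POLR3A, chr1:145824000-145824229 on the plus strand for POLR3C, chr2:196799654-196799883 on the minus strand for GTF3C3, chr16:27549884-27550113 on the minus strand for GTF3C1 and chr13:27424419-27424648 on the plus strand for GTF3A. Capitals mark matches, on either strand, to any of 7 motifs of 8 bases: ACTTCCGG (ETS factors), CACGTGAC (an E-box), AAGATGGC (YY1-like), TCTCGCGA (BANP-like), GCGCATGC (NRF1-like), GGGGCGGG (SP1-like) and ACTACAAT (ZNF143-like). The first 5 promoters carried a PHF20 peak alone, GTF3C3 carried both proteins and held no match, and GTF3C1 and GTF3A carried neither protein.
GTF3C2: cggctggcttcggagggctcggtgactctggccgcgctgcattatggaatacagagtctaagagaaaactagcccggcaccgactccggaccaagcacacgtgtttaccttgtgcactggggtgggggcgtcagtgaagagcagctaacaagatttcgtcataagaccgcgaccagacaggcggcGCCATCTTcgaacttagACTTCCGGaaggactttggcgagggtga
GTF3C6: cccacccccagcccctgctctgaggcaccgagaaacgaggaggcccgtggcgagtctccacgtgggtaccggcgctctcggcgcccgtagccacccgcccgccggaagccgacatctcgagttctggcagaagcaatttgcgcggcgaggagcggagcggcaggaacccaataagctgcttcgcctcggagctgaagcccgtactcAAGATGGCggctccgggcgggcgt
POLR1C: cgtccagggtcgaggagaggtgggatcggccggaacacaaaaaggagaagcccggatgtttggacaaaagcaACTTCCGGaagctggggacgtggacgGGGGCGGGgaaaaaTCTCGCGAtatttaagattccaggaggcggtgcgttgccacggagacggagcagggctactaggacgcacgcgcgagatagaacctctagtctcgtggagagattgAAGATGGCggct
POLR3A: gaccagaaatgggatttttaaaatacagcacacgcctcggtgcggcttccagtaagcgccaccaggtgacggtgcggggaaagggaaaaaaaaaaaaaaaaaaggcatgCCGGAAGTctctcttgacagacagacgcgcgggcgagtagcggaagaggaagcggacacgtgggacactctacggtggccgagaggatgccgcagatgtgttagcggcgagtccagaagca
POLR3C: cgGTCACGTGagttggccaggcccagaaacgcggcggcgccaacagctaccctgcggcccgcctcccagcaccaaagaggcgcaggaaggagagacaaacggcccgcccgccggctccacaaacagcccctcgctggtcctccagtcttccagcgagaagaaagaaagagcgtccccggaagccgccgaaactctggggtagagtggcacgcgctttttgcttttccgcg
GTF3C3: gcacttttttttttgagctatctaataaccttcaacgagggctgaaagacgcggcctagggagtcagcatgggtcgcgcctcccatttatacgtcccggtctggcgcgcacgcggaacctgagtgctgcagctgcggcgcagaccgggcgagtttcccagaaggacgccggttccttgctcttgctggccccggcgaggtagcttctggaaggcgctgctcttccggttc
GTF3C1: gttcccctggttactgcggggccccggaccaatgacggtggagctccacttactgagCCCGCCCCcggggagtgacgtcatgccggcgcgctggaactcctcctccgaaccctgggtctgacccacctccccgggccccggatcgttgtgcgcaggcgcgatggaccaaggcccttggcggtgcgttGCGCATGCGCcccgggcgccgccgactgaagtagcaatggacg
GTF3A: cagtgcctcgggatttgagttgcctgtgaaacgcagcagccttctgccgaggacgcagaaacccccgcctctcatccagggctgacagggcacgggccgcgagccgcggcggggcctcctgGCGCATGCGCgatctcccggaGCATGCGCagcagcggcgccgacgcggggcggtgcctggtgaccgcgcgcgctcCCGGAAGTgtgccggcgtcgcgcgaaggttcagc

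PHF20 was found at the promoters of 14 of the 41 genes (34.1%, Wilson 95% interval 21.6% to 49.5%), against 20.7% of all coding genes. PHF20L1 was found at 5 of 41 (12.2%, interval 5.32% to 25.5%), against 3.82% of coding genes. All 5 genes with PHF20L1 also had PHF20, as did 747 of the 766 coding genes with PHF20L1. Genes with both proteins were thus 12.2% of the 41, against 3.73% of all coding genes, and 9 had PHF20 without PHF20L1. The bound genes were mainly those of Pol III and TFIIIC. Of the 6 TFIIIC genes 5 carried PHF20, as did 5 of the 10 POLR3 genes, which encode subunits found only in Pol III. Together these made 10 of 16 (62.5%, interval 38.6% to 81.5%). Of the other 25 genes, 4 carried PHF20 (16%, interval 6.40% to 34.7%), and none of the 6 genes for subunits found only in Pol I did. This grouping was chosen with the results known, and no test of the difference was made. As the plot of shares by class shows, the classes hold few genes. For PHF20 the intervals of Pol III and TFIIIC lay above the share of all coding genes, and for PHF20L1 that of TFIIIC did so. All other class intervals included that share. Genes of a class are not replicates, and the intervals were not adjusted for the number of classes. These counts and intervals are therefore no test of enrichment. Some of these counts rest in part on narrow peaks: with peaks of at least 300 bp or of at least the median width, TFIIIC had PHF20L1 at 1 of 6 genes and all 41 genes had it at 3, against 2.27% and 2.11% of coding genes, and with the median width Pol III had PHF20 at 3 of 10, against 12.1%. The PHF20L1 list is shorter and was built from 3 ChIP libraries with the tag at either end, so that fewer genes with PHF20L1 and a stricter list cannot be told apart.

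**Figure D1:**
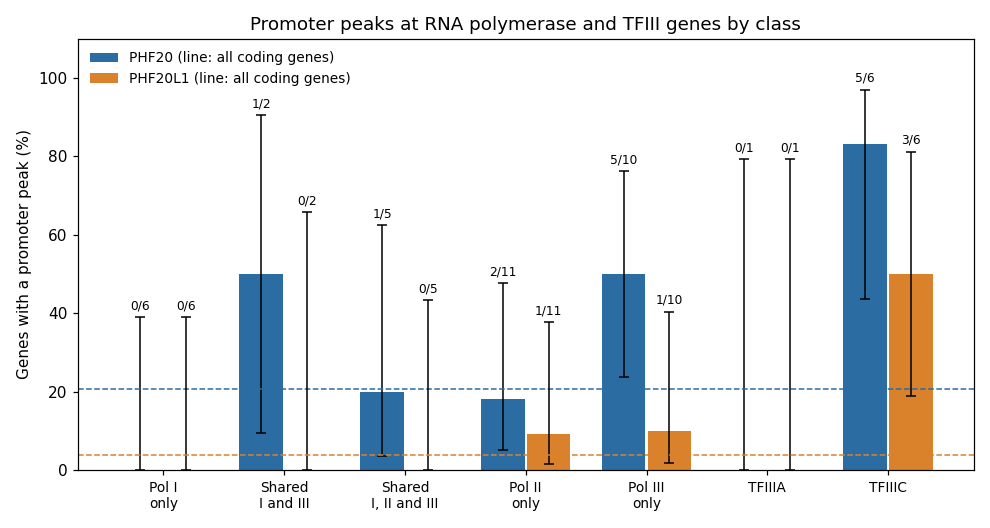
Share of genes with a promoter peak (%, linear axis from 0) for each class of RNA polymerase and TFIII genes, with bars for PHF20 and PHF20L1, error bars for the Wilson 95% interval, the number of bound genes of all genes above each bar, and dashed lines at the share of all coding genes (20.7% and 3.82%). TFIIIC stands highest for both proteins (5/6 and 3/6), and the Pol I class has no bar for either.

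In TFIIIC, PHF20 was at GTF3C2, GTF3C3, GTF3C4, GTF3C5 and GTF3C6 (83.3%, interval 43.6% to 97%), and PHF20L1 was at GTF3C3, GTF3C4 and GTF3C5 (50%, interval 18.8% to 81.2%). The peak at GTF3C2, a subunit of the part of TFIIIC that contacts the B box, spanned 1162 bp (chr2:27356344-27357505) and ran from -741 to +420 bp of the canonical TSS. GTF3C3, which takes part in TFIIIB recruitment, had a PHF20 peak of 1138 bp (chr2:196798986-196800123) with a PHF20L1 peak of 246 bp (chr2:196799589-196799834) inside it and over the TSS. GTF3C4 had the widest PHF20 peak of the class, 1467 bp (chr9:132669640-132671106), wider than 98.4% of the PHF20 peaks at coding promoters or equal to them. Inside it lay 2 PHF20L1 peaks of 224 and 283 bp, which ended 70 bp before and began 105 bp after the canonical TSS, so that neither covered it. GTF3C5, a subunit on the A-box side of the complex, had a PHF20 peak of 817 bp (chr9:133030606-133031422) and a PHF20L1 peak of 412 bp (chr9:133030652-133031063). GTF3C6, the smallest subunit, had a PHF20 peak of 1263 bp (chr6:110957968-110959230) and no PHF20L1 peak within 11830636 bp of its nearest TSS. The exception in the class was GTF3C1, which encodes the largest subunit and contacts the B box of transfer RNA genes: its nearest PHF20 peak lay 941861 bp away and its nearest PHF20L1 peak 942124 bp away. TFIIIA, encoded by GTF3A, was also without a peak, the nearest PHF20 peak being 172645 bp away.

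Among the subunits found only in Pol III, PHF20 was at POLR3A, POLR3B, POLR3C, POLR3D and POLR3F (50%, interval 23.7% to 76.3%), and PHF20L1 at POLR3F alone (10%, interval 1.79% to 40.4%). POLR3A and POLR3B form the catalytic centre of the enzyme. The PHF20 peak at POLR3A spanned 988 bp (chr10:78029279-78030266) and lay mostly upstream, from -751 to +236 bp. POLR3B had the narrowest of all PHF20 peaks at these genes, 285 bp (chr12:106357631-106357915), narrower than all but 11.2% of PHF20 peaks at coding promoters. POLR3C and POLR3F belong to the subcomplex that takes part in initiation with TFIIIB. The POLR3C peak spanned 642 bp (chr1:145823913-145824554). The POLR3F peak spanned 913 bp (chr20:18466988-18467900) and held a PHF20L1 peak of 432 bp (chr20:18467169-18467600), the widest PHF20L1 peak at these genes. POLR3D, which pairs with POLR3E, had a PHF20 peak of 552 bp, whose region also reaches the promoter window of the microRNA gene MIR320A. Its partner POLR3E had no peak within 105613 bp. The third subunit of the initiation subcomplex, POLR3G, and its paralogue POLR3GL were without a peak as well, at 3636436 and 36918 bp from the nearest PHF20 peak, as was POLR3K (515998 bp), which takes part in RNA cleavage.

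None of POLR1A, POLR1B, POLR1E, POLR1F, POLR1G and POLR1H carried either protein. A count of 0 of 6 allows a share of up to 50% (3 counts of 6), and the Wilson interval reached 39.0%, so that a share equal to the 20.7% of all coding genes could not be told apart from 0. The distances to the nearest PHF20 peak ran from 19510 bp at POLR1B, the partner of POLR1A in the catalytic centre, to 3278821 bp at the stalk subunit POLR1F. Of the pair that Pol I shares with Pol III, POLR1C had a PHF20 peak of 1331 bp (chr6:43516313-43517643) and POLR1D had none within 368768 bp. Of the 5 subunits shared by all 3 polymerases, POLR2K had 2 PHF20 peaks, of 291 and 959 bp, the narrower of which lay wholly upstream of the TSS. POLR2E, POLR2F, POLR2H and POLR2L had none. Of the 11 gene IDs assigned to Pol II alone, 2 carried PHF20 (18.2%, interval 5.14% to 47.7%). These were POLR2B, a catalytic subunit with the widest PHF20 peak of all these genes (chr4:56977645-56979346), and POLR2M, a regulator associated with Pol II and not a core subunit. POLR2M had a PHF20 peak of 970 bp (chr15:57706163-57707132) and a PHF20L1 peak of 398 bp (chr15:57706670-57707067). POLR2A, which encodes the largest subunit with the C-terminal domain, had no PHF20 peak within 72347 bp and no PHF20L1 peak within 241290 bp. POLR2C, POLR2D, POLR2G, POLR2I, POLR2J, POLR2J2 and both IDs of POLR2J3 were also without a peak.

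**Figure D2:**
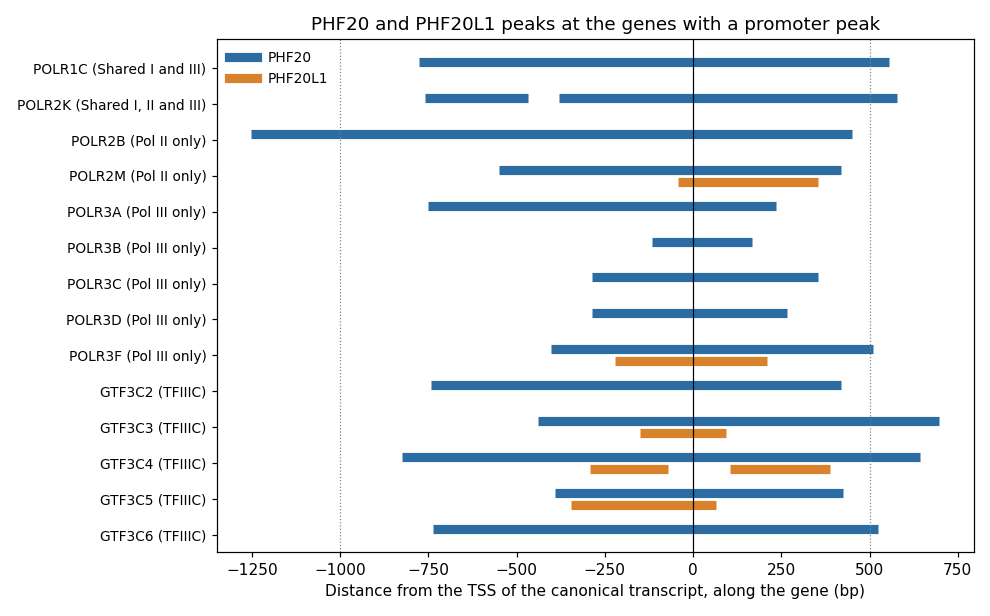
Extent of each PHF20 and PHF20L1 peak around the TSS of the canonical transcript (bp, drawn along the gene; negative is upstream) at the 14 genes with a peak, with the class in brackets and dotted lines at the ends of the promoter window of that transcript. All PHF20 peaks but the narrower one of POLR2K cover the TSS, and every PHF20L1 peak lies within the extent of a PHF20 peak.

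The PHF20 peaks lay over the start sites and were broad. Of the 15 PHF20 peaks at the 14 genes, 14 spanned the canonical TSS, and the median distance of the peak centre from it was 100 bp in either direction. The median width was 970 bp (285 to 1702 bp), against 635 bp for the 3562 PHF20 peaks at coding promoters, and 12 of the 15 were wider than 635 bp. Width is the only magnitude that the list gives, and it does not measure how much protein was bound. The 5 TFIIIC peaks had a median width of 1160 bp (817 to 1467 bp) and the 5 Pol III peaks 642 bp (285 to 988 bp), so that the ranges overlapped only between 817 and 988 bp. The 6 PHF20L1 peaks at 5 genes had a median width of 340 bp (224 to 432 bp), against 323 bp for the 615 PHF20L1 peaks at coding promoters. All 6 lay inside a PHF20 peak, and 4 of them spanned the canonical TSS. PHF20 was also found at 747 of the 766 coding genes with PHF20L1, so sharing a promoter with PHF20 was not particular to these genes. Where both proteins were found, PHF20 peaks were 817 to 1467 bp wide (median 970 bp, 5 peaks). Where PHF20 was alone they were 285 to 1702 bp wide (median 974 bp, 10 peaks), so the widths did not separate these genes. Of the PHF20-bound genes, 35.7% also carried PHF20L1, against 18.0% of all coding genes with PHF20.

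**Figure D3:**
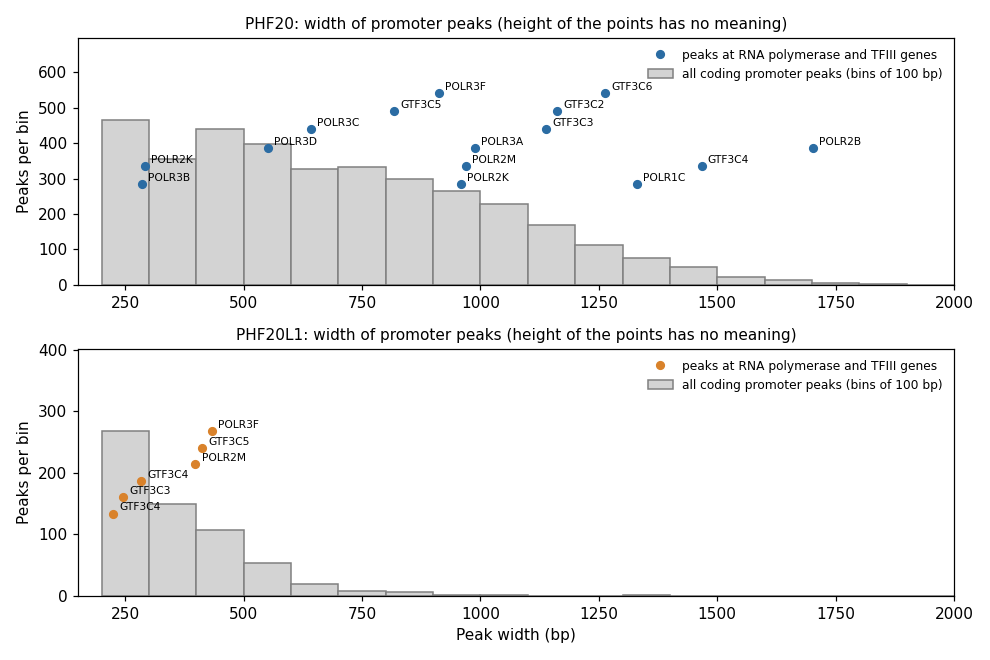
Width (bp) of PHF20 peaks (upper panel) and PHF20L1 peaks (lower panel), with grey bars for the number of peaks at all coding promoters per 100 bp and labelled points for the peaks at RNA polymerase and TFIII genes, whose height carries no value. In the PHF20 panel the TFIIIC points lie at 817 bp and above and POLR2B is the widest at 1702 bp, and in the PHF20L1 panel all points lie between 224 and 432 bp.

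Some of these peaks lie between neighbouring genes and cannot be assigned to 1 of them. Of the 15 PHF20 peaks, 5 also reached the promoter window of another coding gene: YIPF3 at POLR1C, NOA1 at POLR2B, RNF115 at POLR3C, DZANK1 at POLR3F and DDX31 at GTF3C4. So did 3 of the 6 PHF20L1 peaks: that at POLR3F reached the window of DZANK1, and both at GTF3C4 reached that of DDX31. Windows of noncoding genes were reached as well: the lncRNA gene GTF3C2-AS2 by the GTF3C2 peak, an unnamed lncRNA gene by the PHF20 and the PHF20L1 peak of GTF3C5, and MIR320A by that of POLR3D. A coding gene that starts within 1000 bp in the opposite direction was annotated at 13 of the 41 genes, of which 4 carried PHF20 (30.8%) and 2 carried PHF20L1 (15.4%). Such a neighbour was annotated at 1895 of the 20033 coding genes, where the shares were 46.6% and 9.87%. It was absent at 28 of the 41 genes, of which 10 carried PHF20 (35.7%) and 3 PHF20L1 (10.7%). Over all coding genes without one the shares were 18.0% and 3.19%. GTF3C1 itself has such a neighbour, KATNIP.

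Bound and unbound genes were clearly apart in position. The smallest overlap of a PHF20 peak with a promoter window was the full 285 bp at POLR3B, and the closest unbound gene, the shared subunit gene POLR2F, lay 16771 bp from its nearest PHF20 peak. The 27 genes without PHF20 had a median distance of 156000 bp. For PHF20L1 the smallest overlap was the full 224 bp of the upstream peak at GTF3C4, and the closest unbound gene was POLR2G, a stalk subunit of Pol II, at 8109 bp.

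**Figure D4:**
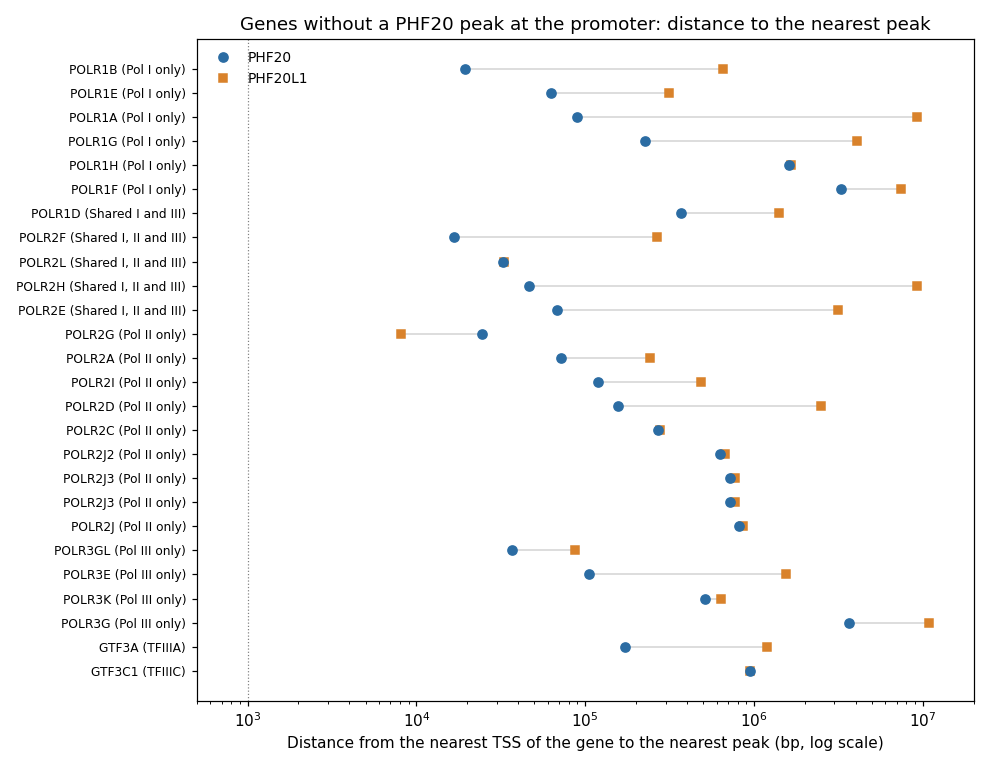
Distance from the nearest TSS to the nearest PHF20 peak (circles) and PHF20L1 peak (squares) in bp on a log axis, for 26 of the 27 gene IDs without a PHF20 peak at the promoter, ordered by class, with a dotted line at 1000 bp. The closest is POLR2G, 8109 bp from a PHF20L1 peak, and the 4 gene IDs of the POLR2J family lie together at 625625 to 818366 bp from PHF20.

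The unbound calls do not rest on equally readable sequence. Only reads with a unique position were kept, and the reads were 50 bases long. In the window of the canonical transcript, at least 95% of all stretches of 50 bases occurred once in hg38 at 31 of the 41 genes, and the median was 100%. At POLR2J it was 24.2%, at POLR2J2 18.9%, and at the 2 IDs of POLR2J3 20.5% and 17.0%. These genes are near copies of each other, and a missing peak in these 4 therefore carries less information than at the other genes. GTF3C1, GTF3A and the 6 Pol I genes were each at 100%. Of the bound genes, POLR3C had the lowest value, 68.3%.

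Nearly all of these promoters were CpG-rich. Promoter GC content (250 bases before to 50 bases from the canonical TSS) had a median of 58.2% at the 14 genes with PHF20 (51.7% to 68.7%) and 67.7% at the 27 without it (44.7% to 81.7%). Over all coding genes the order was the other way, 65.0% with PHF20 and 63.0% without. The ratio of observed to expected CpG was 0.975 and 0.930 at the genes with and without PHF20, against 0.889 and 0.723 over all coding genes. As the plot of base composition shows, bound and unbound genes overlapped on both measures, and GTF3C1 (68.7% GC, ratio 0.933) stood beside GTF3C6 (68.7%, 0.990). Taking CpG-rich promoters as those with at least 50% GC and a ratio of at least 0.6, 40 of the 41 genes had one, POLR1A being the exception with 44.7% GC. Of all 20033 coding genes, 13113 had a CpG-rich promoter. Among CpG-rich coding promoters, 28.6% carried PHF20 and 5.09% carried PHF20L1, against 35.0% and 12.5% of the 40 genes. Beside this background the share of the whole group with PHF20 was therefore less distinct, and that of Pol III (5 of 10, interval 23.7% to 76.3%) no longer lay above it, as the interval includes 28.6%. TFIIIC stood at 83.3% and 50% in the same stratum. Merged over all start sites of a gene, the windows had a median of 4120 bp at the genes with PHF20 and 3080 bp at those without. Whether window length bears on the calls was not tested. With the window of the canonical transcript only, PHF20 was again at 14 genes and PHF20L1 at 5, against 19.1% and 3.47% of coding genes. With genes split into short, middle and long windows at the tertiles of the 41 genes (2617 and 5150 bp), PHF20 was at 14.3%, 21.1% and 26.1% of coding genes and at 4 of 14, 5 of 13 and 5 of 14 of the RNA polymerase and TFIII genes (28.6%, 38.5% and 35.7%).

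**Figure D5:**
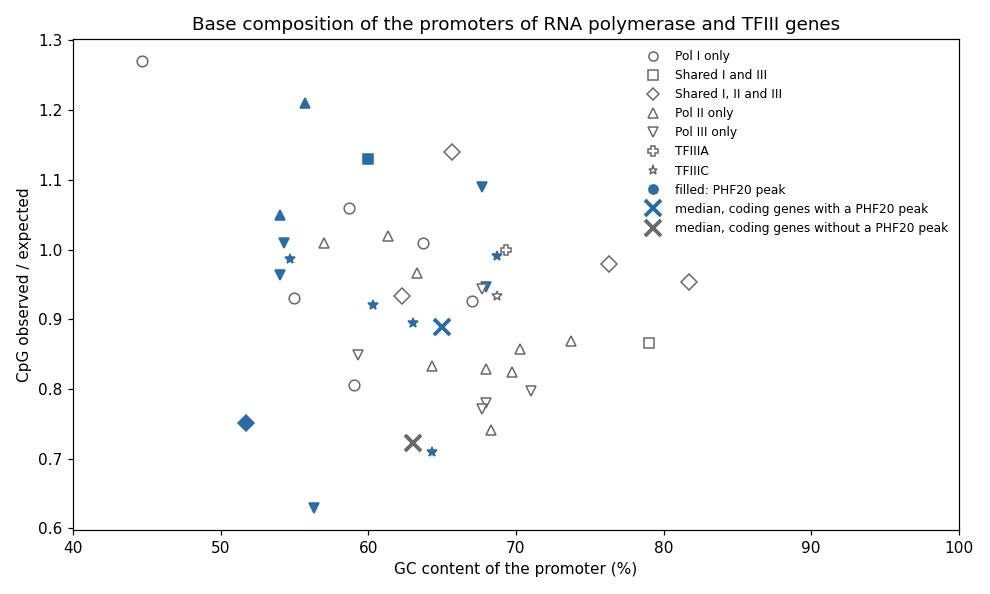
GC content (%) against the ratio of observed to expected CpG in the promoter of each of the 41 genes, with 1 symbol per class, filled where PHF20 had a peak, and crosses at the medians of all coding genes with and without PHF20. Filled symbols lie between 51.7% and 68.7% GC, among open ones, and open ones reach 81.7%.

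The motif matches differed between the genes as well. A match is a description of the letters in the window from 250 bases before to 50 from the TSS and shows no binding by a factor. The ETS motif ACTTCCGG was in 4 of the 14 promoters with PHF20 (POLR1C, POLR2K, POLR3A and GTF3C2) and in 4 of the 27 without (POLR1B, POLR2F, POLR2C and GTF3A), against 6.14% of all coding promoters, 16.5% of those with PHF20 and 3.44% of those without. AAGATGGC was in 4 of 14 and 0 of 27, against 4.04% of all coding promoters, 8.51% of those with PHF20 and 2.88% of those without. Its matches began at +18 in POLR1C, -29 in POLR3D, -15 in GTF3C2 and +6 in GTF3C6, with the TSS as 0, and are the last capitals in the POLR1C and GTF3C6 sequences and the first in that of GTF3C2, where the match is on the opposite strand. The E-box CACGTGAC was in POLR3C alone, at -198, and TCTCGCGA in POLR1C alone, at -88, both among the 14 with PHF20. Their shares were 3.46% and 1.73% of all coding promoters, and 6.56% and 3.71% of those with PHF20. GCGCATGC went the other way, in 0 of 14 and 7 of 27 (POLR2F, POLR2J, POLR2J2, both IDs of POLR2J3, GTF3A and GTF3C1), against 4.27% of all coding promoters, 5.95% of those with PHF20 and 3.83% of those without, which is the opposite order. As 4 of these 7 are near copies in the POLR2J family, they are not separate observations. Matches of this motif may overlap, as they do in the runs of 10 capitals in GTF3C1 and GTF3A. GGGGCGGG was in 3 of 14 and 11 of 27, against 34.0% of all coding promoters, and ACTACAAT was in none, against 0.669%.

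The 5 promoters with both proteins (POLR2M, POLR3F, GTF3C3, GTF3C4 and GTF3C5) held none of the 7 motifs in this window, whereas 7 of the 9 with PHF20 alone held at least 1 of them (77.8%), the other 2 being POLR2B and POLR3B. Among the 27 genes without PHF20, 18 held at least 1. Over all coding genes, 54.1% of the 747 promoters with both proteins, 60.0% of the 3401 with PHF20 alone and 41.8% of the 15885 without PHF20 held at least 1. This split was noticed in the values and not tested. It was less complete over whole PHF20 peaks, where GTF3C3, with both proteins, held GGGGCGGG at +264 and POLR2B, with PHF20 alone, held TCTCGCGA at -1175.

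TFIIIB places Pol III at the start site, and 3 of its 4 genes carried PHF20 (75.0%, interval 30.1% to 95.4%, against 20.7% of all coding genes): BRF1, BRF2 and TBP, whose product is shared by all 3 polymerase systems. BDP1 was without a peak, and BRF2 and TBP also carried PHF20L1 (2 of 4, interval 15% to 85.0%, against 3.82% of all coding genes). The BRF1 peak was 498 bp wide (chr14:105300505-105301002) and reached the window of PACS2, and the TBP peak was 1107 bp wide (chr6:170554070-170555176) and reached that of PSMB1. Of the 7 genes for SNAPc, OCT1 and ZNF143, which act at U6-type promoters, SNAPC3, SNAPC4 and ZNF143 carried PHF20 (42.9%, interval 15.8% to 75.0%, which includes 20.7%). SNAPC5 carried PHF20L1 without PHF20, in a peak of 200 bp (chr15:66497607-66497806), wider than or equal to only 1.95% of PHF20L1 peaks at coding promoters. MAF1, the repressor of Pol III, carried both proteins in 3 peaks that also reached the window of SHARPIN, and SSB, which binds the ends of Pol III transcripts, carried none.

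Of 7 genes for Pol I factors, 4 carried PHF20 (57.1%, interval 25% to 84.2%, against 20.7% of all coding genes) and 0 carried PHF20L1 (interval to 35.4%, which includes the 3.82% of all coding genes). The 4 were TAF1A, TAF1B and TAF1C, which encode subunits of the selectivity factor SL1, and the terminator protein gene TTF1, with peaks of 934, 231, 588 and 999 bp. UBTF, RRN3 and TAF1D were without a peak. Of 10 genes for assembly and nuclear transport of the polymerases, RPAP1, GPN2, URI1 and RUVBL1 carried PHF20 (40%, interval 16.8% to 68.7%, which includes 20.7%) and RUVBL1 also carried PHF20L1. Next to these, 28 of 66 genes for Mediator, TFIID and TFII factors (42.4%, interval 31.2% to 54.4%) and 19 of 35 aminoacyl-tRNA synthetase genes (54.3%, interval 38.2% to 69.5%) carried PHF20, and 9.09% and 8.57% carried PHF20L1. The shares for PHF20 in these lists were thus above that of the 41 genes (34.1%) and within the interval of Pol III and TFIIIC together (38.6% to 81.5%), and no difference between the lists was tested.

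Of 35 RNA genes that Pol III itself transcribes, found under the 36 symbols listed, 5 had a PHF20 peak in the window (14.3%, interval 6.26% to 29.4%, which includes the 20.7% of all coding genes) and PHF20L1 was at 0 of 35 (interval to 9.89%, which includes the 3.82% of all coding genes; 3 counts of 35 would be 8.57%). The 5 were RMRP, RPPH1, RNU6-1, RNU6-2 and RNU6-9, with peaks of 357, 416, 250, 463 and 358 bp. At RMRP, RPPH1, RNU6-2 and RNU6-9 the same peak also reached the window of a coding gene (CCDC107, PARP2, TMEM259 and MED16), so that it cannot be assigned to the RNA gene. The peak at RNU6-1 (chr15:67840391-67840640) reached no coding window and lay upstream of the start, from -595 to -346 bp, without covering it. Among the 35, 10 had at least 95% unique stretches of 50 bases in the window, and RMRP, RPPH1, RNU6-1 and RNU6-2 were among these 10. The 5S RNA copies ranged from 0%, as at RNA5S2, where no read could be kept, to 27.3% at RNA5S17. Both the 14.3% and the 0 of 35 thus include copies at which a peak could hardly be called. Window length was not matched either. The 20.7% counts all transcripts of a coding gene, and the share was 19.1% with the canonical transcript only. Among coding genes with merged windows of up to 2617 bp, 14.3% carried PHF20.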

How the data were processed

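Per the study's methods and the labels, the authors mapped reads of 50 bases to hg38 with Bowtie 1.1.2, kept unique positions and 1 read per position, called peaks with MACS2 2.2.7.1 against input and removed blacklisted regions. They deposited 1 list per protein of peaks from the best replicate that overlapped peaks of the other replicates, and removed a PHF20 replicate that failed peak calling. The p-value limit for a peak was looser in the other replicates than in the best replicate. The deposited values are positions in bp, with no other per-sample value, so that no test between libraries was made.

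Peaks were compared with GENCODE release 44 and sequences read from hg38. Python 3.11.15, numpy 2.4.6, scipy 1.17.1, pysam 0.24.0 and matplotlib 3.10.9 were used. The overlap step, tested on simulated data, found 200 of 200 planted peaks among 1000 windows with 0 false. The background is the share of all 20033 coding genes, and shares have Wilson 95% intervals. Every gene with a peak was named, and those without by class. The gene list and the pathway lists were chosen with earlier results of these data known. The limits for CpG-rich promoters, the split by window length and the count of promoters with any motif were set after values were seen. RNY5 was not matched. The result for 1 of the genes is counted but not reported here by name. Alternatives were other TSSs, windows, overlaps, peak widths, classes and sequence windows.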

Additional observations from a re-analysis of the deposited data

How the results depend on the processing

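Of 33 counts and medians, recomputed under the alternatives that apply to each, 171 values stayed within 1.5 times the reported count or within the spread and 12 did not. With the narrower part of each list left out (peaks below its median width), PHF20L1 and both proteins were each at 3 genes in place of 5, Pol III had 3 genes with PHF20 (POLR3B and POLR3D were lost) and TFIIIC had 1 with PHF20L1 (GTF3C3 and GTF3C4 were lost), while the share of coding genes fell to 12.1% for PHF20 and 2.11% for PHF20L1. With peaks of at least 300 bp, PHF20L1 and both proteins were again at 3 genes and TFIIIC had 1 with PHF20L1. With only the outermost TSS of each gene, POLR1C was lost and the pair shared by Pol I and Pol III had 0 with PHF20. With classes as the symbols give them, Pol I had 1 of 8 with PHF20, which was POLR1C. Without POLR2J2, POLR2J3 and POLR2M, Pol II had 1 of 7 with PHF20 and 0 with PHF20L1. In whole peaks, TCTCGCGA was in 2 bound genes in place of 1. The count of 5 TFIIIC genes with PHF20 was the same under each alternative.

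No paired analysis was possible because each final list combines its replicates. Leaving out a replicate was not run for the same reason. The lists hold no depth, and the small classes limit every share.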
